A study of Mus musculus with 9 samples.

Results

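The genes described here are 40 genes of the cell cycle and of DNA replication, matched by Ensembl identifier and symbol to the 22165 gene rows of 1 deposited count table. They were sorted by role into 17 genes of mitosis, 13 of DNA replication and 9 of G1 control, with the proliferation marker Mki67 on its own. All 40 symbols were found in the table, and 31 had enough reads to be tested. The cells were mouse bone marrow-derived macrophages, grown in culture from the marrow of 6 to 16-week-old mice of the C57BL/6N strain. Every group received lipopolysaccharide (LPS), a component of the bacterial outer membrane, at 100 ng/mL for 24 h. The KO+ITA group was Irg1 knockout cells to which 1 mM itaconate was given 4 h after LPS. The KO group was Irg1 knockout cells with LPS alone, and the WT group was wild type cells with LPS alone, with 3 libraries in each of the 3 groups. Irg1 is also called Acod1 and codes for the itaconate-producing enzyme, and its deletion was shared by the KO+ITA and KO groups. The labels say neither which piece of Irg1 was deleted nor how many mice were used. Nor do they say whether replicates were separate cultures or animals, so a p-value here measures only the spread among these libraries, and that spread may be technical.

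A dividing cell passes through G1, copies its DNA in S phase, and segregates the copies in mitosis. D-type cyclins and cyclin E drive kinases that inactivate the retinoblastoma protein and free E2F factors, which switch on replication genes. Mitotic genes come on later, through the DREAM and MuvB complexes that bind CHR elements (cell cycle genes homology regions) and through NF-Y, which binds CCAAT boxes. Macrophages grown from marrow divide in response to the growth factor CSF-1, and LPS is known to stop that division.

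Promoter windows of 5 of the genes are shown, from RefSeq on GRCm38.p6, each from 250 bases before to 50 bases after the gene start. The 5 were taken because the Mki67 and Rrm1 values separate KO replicates 1 and 2 from the other libraries, Cdk1 and Ube2c are mitotic genes with and without measurable reads, and Mcm6 holds the replication type of motif. Mki67 lies at chr7:135716330-135716629 (minus strand), Cdk1 at chr10:69352863-69353162 (minus strand), Ube2c at chr2:164769679-164769978 (plus strand), Mcm6 at chr1:128359656-128359955 (minus strand) and Rrm1 at chr7:102441445-102441744 (plus strand). Capitals mark a match on either strand to an E2F motif (TTTCCCGC, TTTGGCGC, TTTCGCGC or TTTGCCGC), a CHR (TTTGAA or TTCGAA) or a CCAAT box, and overlapping matches run together.
Mki67: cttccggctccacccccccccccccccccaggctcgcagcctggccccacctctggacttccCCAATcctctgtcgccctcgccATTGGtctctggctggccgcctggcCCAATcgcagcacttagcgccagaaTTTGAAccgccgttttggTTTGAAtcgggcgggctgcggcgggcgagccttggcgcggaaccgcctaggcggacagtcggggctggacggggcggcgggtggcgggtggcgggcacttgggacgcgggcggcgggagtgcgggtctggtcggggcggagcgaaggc
Cdk1: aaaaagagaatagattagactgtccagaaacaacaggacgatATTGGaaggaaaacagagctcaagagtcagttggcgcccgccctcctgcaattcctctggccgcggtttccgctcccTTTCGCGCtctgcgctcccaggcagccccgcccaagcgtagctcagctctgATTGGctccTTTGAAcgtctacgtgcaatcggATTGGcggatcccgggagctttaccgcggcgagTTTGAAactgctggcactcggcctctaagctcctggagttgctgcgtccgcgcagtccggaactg
Ube2c: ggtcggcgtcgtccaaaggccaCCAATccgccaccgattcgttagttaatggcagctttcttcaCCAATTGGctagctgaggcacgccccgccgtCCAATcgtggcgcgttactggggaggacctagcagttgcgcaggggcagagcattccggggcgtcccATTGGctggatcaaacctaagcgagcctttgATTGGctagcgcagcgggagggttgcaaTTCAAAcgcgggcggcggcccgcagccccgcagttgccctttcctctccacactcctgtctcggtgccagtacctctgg
Mcm6: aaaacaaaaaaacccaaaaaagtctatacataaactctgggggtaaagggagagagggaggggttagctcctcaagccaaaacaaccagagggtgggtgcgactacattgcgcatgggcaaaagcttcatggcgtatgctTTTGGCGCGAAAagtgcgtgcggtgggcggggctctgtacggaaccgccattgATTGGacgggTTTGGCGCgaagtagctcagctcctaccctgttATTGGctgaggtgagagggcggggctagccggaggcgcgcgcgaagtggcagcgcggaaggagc
Rrm1: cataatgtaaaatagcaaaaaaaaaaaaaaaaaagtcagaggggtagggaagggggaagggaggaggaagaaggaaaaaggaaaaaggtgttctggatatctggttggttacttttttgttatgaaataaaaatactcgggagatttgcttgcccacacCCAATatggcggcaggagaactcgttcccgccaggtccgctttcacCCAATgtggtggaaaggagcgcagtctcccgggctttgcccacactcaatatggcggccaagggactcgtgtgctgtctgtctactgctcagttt
The Mki67 window held 2 CHR and 3 CCAAT matches, the Cdk1 window 1 E2F, 2 CHR and 3 CCAAT matches, and the Ube2c window 1 CHR and 6 CCAAT matches. Mcm6 held 3 E2F and 2 CCAAT matches and no CHR, whereas the Rrm1 window held 2 CCAAT boxes alone.

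A window was given for 31 of the 40 genes. Of the 14 mitosis genes with one, 11 (78.6%) held a CHR and 13 (92.9%) a CCAAT box, and 1 (7.14%) held an E2F motif. Of the 11 replication genes, 6 (54.5%) held an E2F motif, 2 (18.2%) a CHR and 8 (72.7%) a CCAAT box. None of the 5 G1 genes with a window held an E2F or CHR match. The E2f1 window, chr2:154569377-154569676 on the minus strand, lay wholly inside the gene, whose outermost start is at 154569892. All windows of Cdc6 and Mcm7 also lay inside their genes. For these genes the bases before the outermost start were not searched. Among the 27025 genes with a window, 2.6% held an E2F motif, 21.7% a CHR and 41.1% a CCAAT box. The median GC content was 59% over the windows of the 40 genes and 52.7% over all windows. A match is a description of letters, and binding was not measured.

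Libraries were 3′-end libraries made without a stated molecular identifier, with 7361671 to 20430359 gene reads each. Reads of Acod1 went against the labels of 4 libraries: those labelled WT replicates 1 and 2 held 94 and 117 reads, fewer than the 154 and 170 of KO replicates 1 and 2, while those labelled KO replicate 3 and KO+ITA replicate 3 held 44920 and 60716. KO+ITA replicates 1, 2 and 3 lay in pools 2, 3 and 4, KO replicates 1 and 2 and all WT libraries in pool 1, and KO replicate 3 in pool 2, if the number before the barcode is read as a pool, which the labels do not define. The library labelled KO+ITA replicate 3 stood apart, with a mean correlation with the other libraries of 0.909, against 0.939 to 0.954 for those. All 10 macrophage markers were measured, with summed levels of 6160 to 8800 CPM in KO+ITA, 8510 to 9140 CPM in KO and 9340 to 11400 CPM in WT libraries. Of the 7 markers of myeloid progenitors, which divide, none had over 11 reads in any library and Cd34 had 0 in all. Fibroblast markers, 5 of 6 tested, summed to 166 to 271 CPM in KO+ITA, 189 to 221 CPM in KO and 185 to 270 CPM in WT libraries. Their largest part was Col1a2 (means 148, 118 and 133 CPM), whereas Lum had at most 9 reads. The fibroblast markers differed in direction. Dcn was also highest in KO+ITA (means 37.7, 29.9 and 31.4 CPM). Col1a1 (25.3, 37.6 and 48.5 CPM) and Pdgfra (0.336, 1.07 and 0.766 CPM) were lowest there, and Col3a1 was highest in WT (18.5, 17.2 and 21.8 CPM). Neutrophil markers, 5 of 7 tested, summed to 81.9 to 136 CPM in KO+ITA, 65.8 to 91.5 CPM in KO and 61.2 to 84.6 CPM in WT libraries. Most of that sum was Mmp8 (means 98.2, 68.0 and 65.8 CPM), whereas Ly6g had at most 3 reads. Of the other tested neutrophil markers, Ngp, Camp and Cxcr2 had their highest means in WT and Ltf in KO+ITA. The part of these marker levels in the results was not tested.

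No gene of the 10781 tested was called in any comparison (edgeR quasi-likelihood test, Benjamini-Hochberg adjusted p under 0.05), so 0% of genes and 0 of the 31 tested genes of the cell cycle passed. Several mitotic genes, cyclins A and B1 among them, had too few reads to pass the filter, as did Rrm2 of the replication genes, while all 9 G1 genes passed. Mki67 and Rrm1 had their highest values in KO replicates 1 and 2, and Ccnd1 was above its 3 WT values in every KO+ITA library. For KO+ITA against KO, the medians of the mitosis and replication genes lay above 0 on the log2 scale, whereas Mki67 and Rrm1 lay below 0. In that comparison the median of 38 other tested replication genes was -0.07.

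Counts of genes whose groups do not overlap are given beside the share over all tested genes. For KO+ITA against KO, 0 of the 31 tested genes had non-overlapping groups, where 10.9% of all tested genes did (5.61% higher, 5.29% lower). For KO+ITA against WT there were 3 (Mcm4 lower, Cdc6 and Ccnd1 higher), where 14.6% did (7.3% higher, 7.25% lower). For KO against WT there were 4, all lower (Bub1b, Mcm4, Ccne2 and E2f1), where 10.6% did (4.85% higher, 5.76% lower). At an unadjusted p under 0.05, the counts were 3, 2 and 2 of 31, where 8.3%, 8.89% and 3.13% of tested genes passed in the same order of comparisons. The comparisons share libraries, so their values are not independent of each other.

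The filter on low counts was passed by 9 of 17 mitosis genes, 12 of 13 replication genes and 9 of 9 G1 genes, where 48.6% of all gene rows passed. The mitosis share was near that of all gene rows. The 8 mitosis genes that did not pass had few reads in every library. Ccnb1 encodes cyclin B1, the main partner of Cdk1 at mitotic entry. It had 0, 0 and 0 reads in KO+ITA libraries, 3, 0 and 6 reads in KO libraries and 0, 4 and 2 reads in WT libraries. Ccna2, the cyclin A of S phase and mitotic entry, had at most 4 reads, and was at 0 in 6 libraries. Ube2c, the ubiquitin-conjugating enzyme of the anaphase-promoting complex, had at most 3 reads and was at 0 in 7. Cdc20, which activates that complex, had at most 8 reads, Plk1, a kinase of mitotic entry and spindle assembly, at most 10, and Bub1, a checkpoint kinase, at most 11. Birc5 (survivin), a subunit of the chromosomal passenger complex, had at most 13 reads, and Cenpf, a kinetochore protein, at most 14. The last 300 transcript bases of Cenpf share stretches of at least 95% identity with 27 other genes, so its reads are less certain. A count of 0 allows up to 3 reads, which was 0.147 to 0.401 CPM in these libraries, for counting error only. In bulk RNA, fewer dividing cells and less RNA per dividing cell cannot be told apart.

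**Figure D1:**
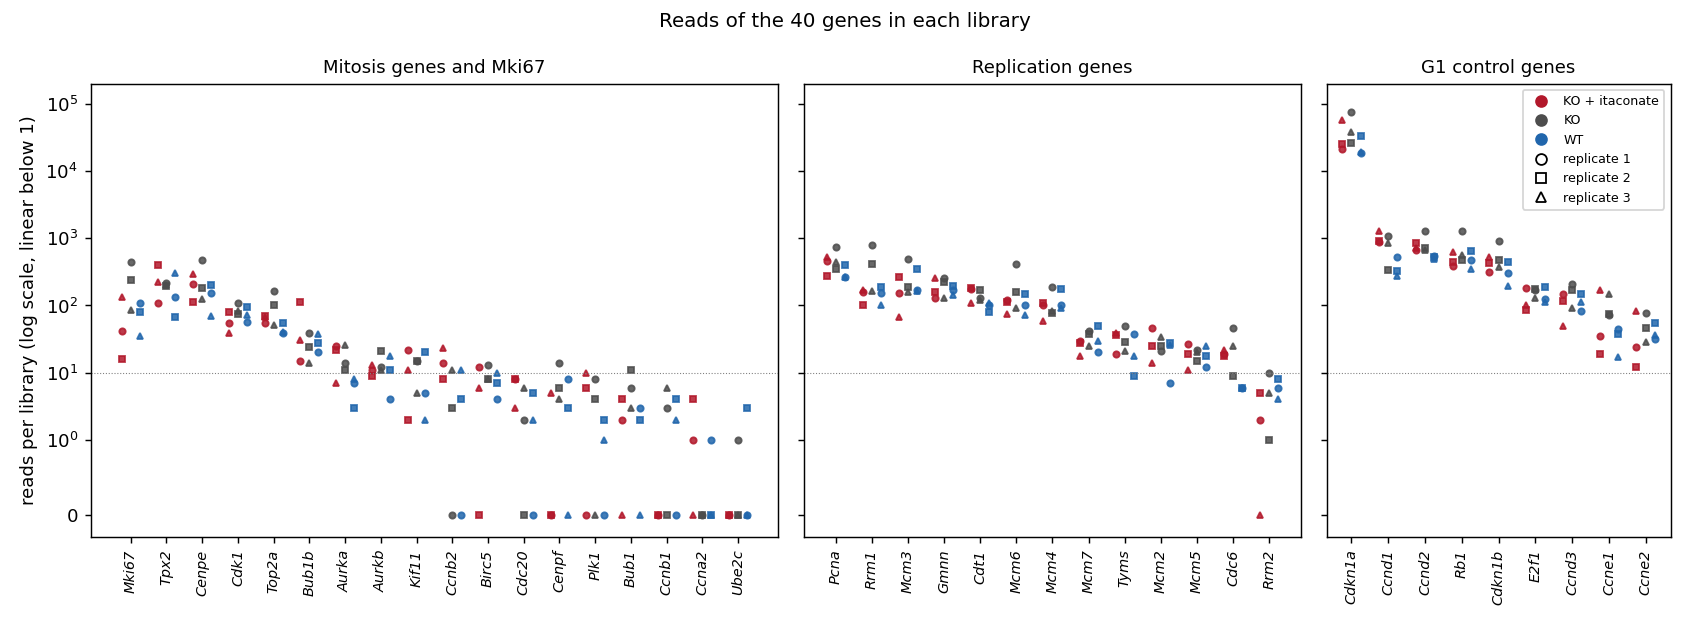
Reads per library (vertical axis, logarithmic above 1 and linear below it) of the 40 genes, by role, where each point is 1 library, colour gives the group (KO + itaconate, KO, WT from left to right) and shape the replicate. The dotted line marks 10 reads; mitosis genes from Birc5 to Ube2c stayed at or below 14 reads, whereas Cdkn1a was above all other genes in every library.

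Mki67 (ENSMUSG00000031004, chromosome 7, 135689784 to 135716361 on the minus strand of GRCm38) encodes Ki-67, a coat protein of mitotic chromosomes used to mark dividing cells. It measured 3.88, 1.75 and 14.2 CPM in the libraries labelled KO+ITA, 22.0, 17.9 and 8.56 CPM in those labelled KO, and 12.8, 6.25 and 4.68 CPM in those labelled WT. KO replicates 1 and 2 were the highest of the 9 libraries and KO+ITA replicates 1 and 2 the lowest, but the groups overlapped because KO replicate 3 lay below KO+ITA replicate 3. The mean was 6.6 ± 6.64 CPM in KO+ITA, 16.2 ± 6.91 CPM in KO and 7.92 ± 4.33 CPM in WT (SD, n = 3 each). The log2 difference was -1.30 ± 0.61 (SE) for KO+ITA against KO (edgeR adjusted p = 0.597), -0.26 ± 0.61 for KO+ITA against WT (adjusted p = 0.914) and 1.03 ± 0.61 for KO against WT (adjusted p = 0.995). None passed the threshold.

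The Mki67 difference depended on which libraries were set side by side. Without the library labelled KO+ITA replicate 3 it was -2.52 for KO+ITA against KO, and -1.47 for KO+ITA against WT. Without the 4 libraries whose Acod1 reads went against their labels, it was -2.83 for KO+ITA against KO, with an edgeR adjusted p of 0.00442. That fit set KO+ITA replicates 1 and 2, of pools 2 and 3, against KO replicates 1 and 2, of pool 1, so pool and group cannot be told apart in it. In the only pair of these groups that shares a pool, KO+ITA replicate 1 and KO replicate 3, the fit with pool as a term gave -1.14. Within pool 1, KO replicates 1 and 2 lay 1.36 above the 3 WT libraries on the log2 scale, with no gene called.

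Of the mitosis group, 9 genes were tested, and their differences went in both directions. In KO+ITA against KO, 7 of 9 were higher with a median log2 difference of 0.45. In KO+ITA against WT, 7 of 9 were higher with a median of 0.46, and in KO against WT 3 of 9 were higher with a median of -0.19. Over all tested genes the medians were -0.02, -0.01 and -0.01, with 48.4%, 49.1% and 48.9% of genes higher. The median SE of a mitosis gene was 0.69 for KO+ITA against KO. The group's value turned on the libraries used, because for KO against WT the median was 0.51 without WT replicate 3, and with pool as a term it was -0.01 for KO+ITA against KO and -0.29 for KO+ITA against WT.

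Top2a, the topoisomerase that untangles DNA before chromosomes separate, measured 4.99, 7.57 and 7.19 CPM in KO+ITA, 7.92, 7.79 and 5.02 CPM in KO, and 4.68, 4.29 and 5.35 CPM in WT libraries. Its highest library was 1.84 times its lowest. The kinase Cdk1, which drives mitotic entry, measured 4.99, 8.66 and 4.12 CPM in KO+ITA, 5.23, 5.59 and 8.17 CPM in KO, and 6.72, 7.5 and 9.5 CPM in WT libraries. Top2a was highest in KO replicates 1 and 2, as Mki67 was, but by a small margin over KO+ITA replicate 2, and Cdk1 was highest in WT replicate 3. The log2 difference for KO+ITA against KO was -0.08 ± 0.37 (SE) for Top2a and -0.09 ± 0.39 for Cdk1 (edgeR adjusted p = 0.971 and 0.966).

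Bub1b encodes BubR1 of the spindle checkpoint. It measured 1.39, 12.4 and 3.28 CPM in KO+ITA, 1.91, 1.81 and 1.38 CPM in KO, and 2.4, 2.19 and 5.08 CPM in WT libraries. All 3 KO values lay below all 3 WT values, and KO+ITA held both the highest and nearly the lowest value of the 9. Its log2 difference for KO+ITA against KO was 1.72 ± 0.69 (SE; edgeR unadjusted p = 0.0247, adjusted p = 0.545), and 0.44 without KO+ITA replicate 2. Tpx2, which targets spindle assembly factors to microtubules, measured 10.2, 43.6 and 23.5 CPM in KO+ITA, 10.5, 14.8 and 19.8 CPM in KO, and 15.8, 5.31 and 40.5 CPM in WT libraries. Its groups overlapped in all comparisons, and its last 300 transcript bases share stretches of at least 95% identity with 5 other genes, so its reads are less certain.

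Cenpe, a kinetochore motor, measured 19.6, 12.4 and 31.2 CPM in KO+ITA, 22.9, 14.0 and 12.3 CPM in KO, and 18.6, 15.7 and 9.37 CPM in WT libraries, with overlapping groups. Ccnb2 (cyclin B2) rested on 0 to 23 reads and the kinase Aurka on 3 to 26, so that their log2 differences for KO+ITA against KO, 1.92 ± 1.24 and 0.45 ± 0.81 (SE), carried wide errors. Aurkb, the kinase of the chromosomal passenger complex, had 4 to 21 reads and Kif11, the motor that separates spindle poles, 2 to 22.

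**Figure D2:**
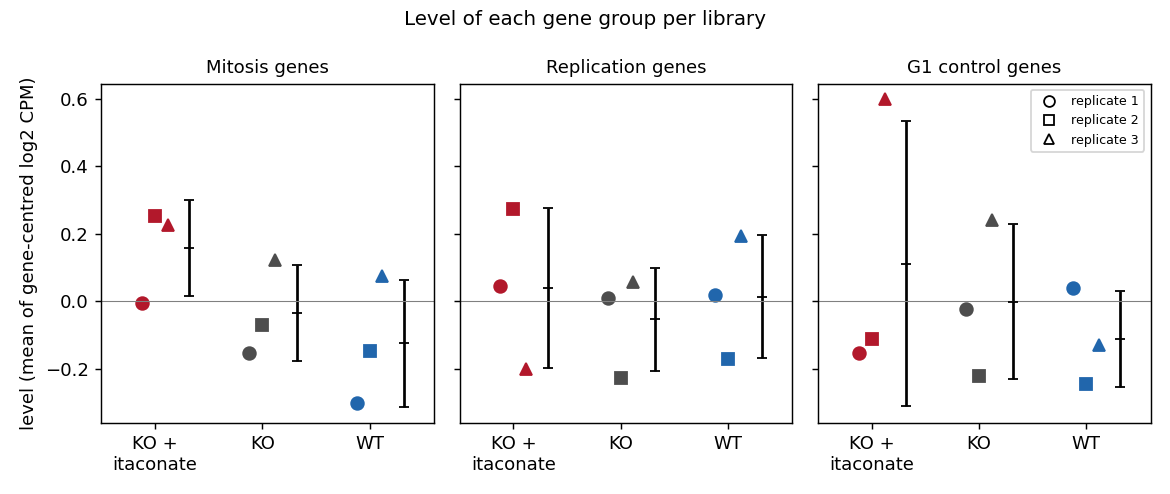
Level of the mitosis, replication and G1 control genes in each library, as the mean of log2 CPM centred on each gene's mean. All genes of a role enter, those below the filter included. Points are libraries, shapes replicates, and bars give the mean ± SD of 3 libraries. The 3 labelled groups overlap in every panel, and KO+ITA replicate 3 is the highest point of the G1 panel at 0.60.

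Replication genes other than Rrm2 had reads in every library. Pcna, the sliding clamp of DNA polymerases, measured 42.1, 29.6 and 56.5 CPM in KO+ITA, 35.6, 26.2 and 44.4 CPM in KO, and 31.9, 30.8 and 35.7 CPM in WT libraries. All 3 groups overlapped, with a log2 difference of 0.27 ± 0.30 (SE) for KO+ITA against KO (edgeR adjusted p = 0.837). As a group, 9 of 12 tested genes were higher for KO+ITA against KO with a median of 0.27, 6 of 12 for KO+ITA against WT with a median of -0.01, and 4 of 12 for KO against WT with a median of -0.13. The first of these was 0.05 with pool as a term.

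The genes Mcm2 to Mcm7 encode the replicative helicase, a ring of 6 different subunits. For KO+ITA against KO, the log2 differences were -0.11 and -0.41 for Mcm3 and Mcm6. For Mcm2, Mcm4, Mcm5 and Mcm7 they were 0.48, 0.26, 0.47 and 0.08. Only that of Mcm6 was larger than its own SE of 0.35, so these signs cannot show whether the subunits moved together. Mcm4 measured 9.51, 12.1 and 6.13 CPM in KO+ITA, 9.09, 5.75 and 8.27 CPM in KO, and 12.4, 13.7 and 12.2 CPM in WT libraries. All 6 libraries labelled knockout lay below all 3 labelled WT. The log2 difference was -0.47 ± 0.34 (SE) for KO+ITA against WT (edgeR adjusted p = 0.689) and -0.73 ± 0.34 for KO against WT (unadjusted p = 0.0499, adjusted p = 0.995). It was -0.75 within pool 1, and in the leave-one-out fits it lay between -0.87 and -0.56. Of the other subunits, Mcm3 measured 14.3, 29.0 and 7.09 CPM in KO+ITA, 24.1, 14.4 and 15.5 CPM in KO, and 20.04, 27.5 and 22.2 CPM in WT libraries. Mcm5 and Mcm7 are less certain, because their transcript ends resemble 9 and 1 other genes.

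Rrm1 and Rrm2 are the large and small subunits of ribonucleotide reductase, which makes the deoxynucleotides for DNA. Rrm1 (ENSMUSG00000030978, chromosome 7, 102441695 to 102469771 on the plus strand) measured 14.9, 11.3 and 18.2 CPM in KO+ITA, 39.4, 31.3 and 16.0 CPM in KO, and 18.4, 14.7 and 13.5 CPM in WT libraries. KO replicates 1 and 2 were the highest libraries, as for Mki67, and KO replicate 3 lay among the others. The log2 difference was -0.97 ± 0.34 (SE) for KO+ITA against KO (edgeR unadjusted p = 0.0123, adjusted p = 0.514), -0.07 ± 0.34 for KO+ITA against WT (adjusted p = 0.963) and 0.90 ± 0.34 for KO against WT (unadjusted p = 0.0185, adjusted p = 0.995). Without the 4 libraries that went against their labels, the first was -1.46 with an edgeR adjusted p of 0.0387, in the fit in which pool and group cannot be told apart. With pool as a term it was -0.11, set by KO+ITA replicate 1 and KO replicate 3. Within pool 1, KO lay 1.21 above WT. Rrm2, the subunit whose amount varies most through the cycle, had 2, 5 and 0 reads in KO+ITA, 10, 1 and 5 reads in KO and 6, 8 and 4 reads in WT libraries, and was not tested.

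Origin licensing joins Cdc6 and Cdt1, which load the helicase, with geminin (Gmnn), which blocks Cdt1. Cdc6 measured 1.75, 1.97 and 2.33 CPM in KO+ITA, 2.25, 0.68 and 2.46 CPM in KO, and 0.72, 0.469 and 0.803 CPM in WT libraries. Every KO+ITA library lay above every WT library, on 18 to 22 reads against 6 in each. The log2 difference was 1.61 ± 0.73 (SE) for KO+ITA against WT (edgeR unadjusted p = 0.0431, adjusted p = 0.55). Cdt1 measured 16.4, 20.3 and 11.5 CPM in KO+ITA, 6.21, 13 and 11.9 CPM in KO, and 12.1, 6.25 and 14.7 CPM in WT libraries, and Gmnn 11.9, 17.7 and 26.9 CPM in KO+ITA, 12.5, 16.9 and 12.5 CPM in KO, and 20.3, 15.1 and 18.9 CPM in WT libraries. Their groups overlapped. Tyms, thymidylate synthase, had 9 to 49 reads and overlapping groups.

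**Figure D3:**
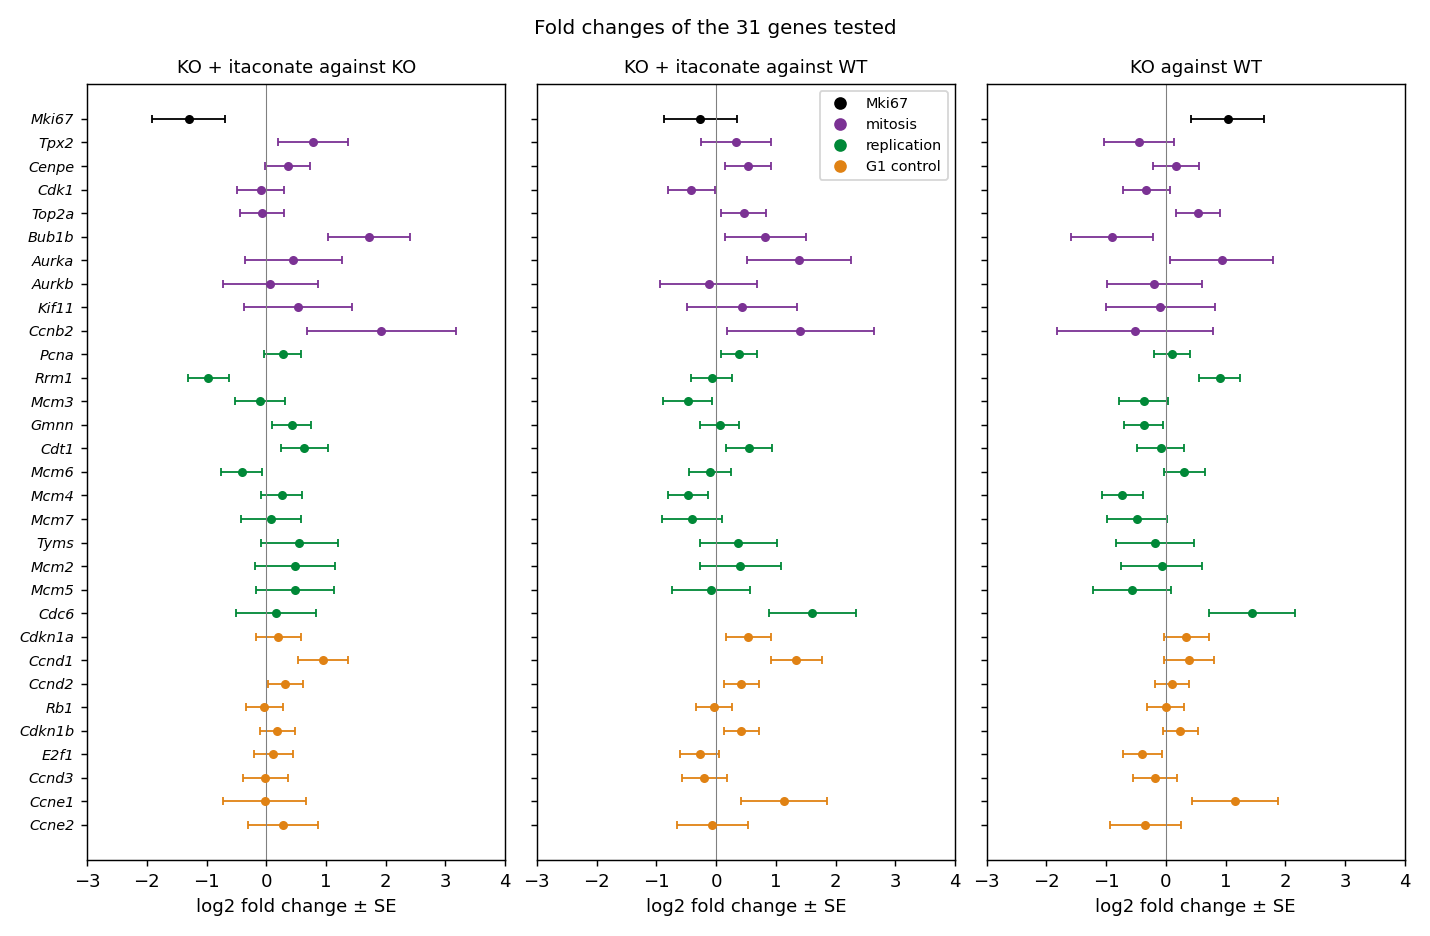
Log2 fold change ± SE (horizontal axis, edgeR) of the 31 tested genes in each of the 3 comparisons, coloured by role. Mki67 and Rrm1 lie below 0 for KO+ITA against KO at -1.30 and -0.97 and above 0 for KO against WT at 1.03 and 0.90, and no gene passed the adjusted threshold.

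All 9 G1 genes were tested. Cyclin D1 (Ccnd1, ENSMUSG00000070348, chromosome 7, 144929931 to 144939925 on the minus strand) pairs with Cdk4 and Cdk6 in early G1. It measured 80.3, 99.6 and 135 CPM in KO+ITA, 53.6, 25.1 and 84.0 CPM in KO, and 62.8, 25.1 and 36.5 CPM in WT libraries. All KO+ITA values lay above all WT values, whereas KO replicate 3 lay above KO+ITA replicate 1. The log2 difference was 0.95 ± 0.42 (SE) for KO+ITA against KO (edgeR unadjusted p = 0.0393, adjusted p = 0.59) and 1.34 ± 0.43 for KO+ITA against WT (unadjusted p = 0.00675, adjusted p = 0.515). For KO against WT it was 0.39 ± 0.42 (adjusted p = 0.995). With pool as a term the first 2 were -0.06 and -0.13, and both then rest on KO+ITA replicate 1 set against KO replicate 3, which share pool 2. The second rests also on KO replicates 1 and 2 set against the WT libraries of pool 1. Exons of Ccnd1 overlap those of LTO1 on the other strand, and the strand setting of the counting was not given in the sources used here. Exons of Ccna2, Cdc20, Plk1, Ube2c, Mcm7, Ccne2, Ccnd2, Ccnd3, Cdkn1a and Rb1 also overlap genes on the other strand. Where in the transcript these overlaps lie was not recorded.

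Ccnd2 (cyclin D2) measured 61.0, 94.5 and 74.8 CPM in KO+ITA, 63.5, 54.2 and 66.8 CPM in KO, and 64.8, 40.8 and 66.1 CPM in WT libraries, and Ccnd3 (cyclin D3) 13.8, 12.8 and 5.29 CPM in KO+ITA, 10.4, 12.7 and 9.15 CPM in KO, and 9.96, 11.5 and 15.1 CPM in WT libraries. Both overlapped between all groups. Ccne1 (cyclin E1), which acts at the entry to S phase, measured 3.23, 2.08 and 17.7 CPM in KO+ITA, 3.47, 5.59 and 14.5 CPM in KO, and 5.28, 2.89 and 2.27 CPM in WT libraries. Its 2 high values came from KO+ITA replicate 3 and KO replicate 3, both among the libraries that went against their labels. WT replicates 1 and 2, which also went against their labels, were at 5.28 and 2.89 CPM. WT replicate 3, with 31169 Acod1 reads, was at 2.27 CPM. The Ccne1 difference for KO+ITA against KO was -0.02 ± 0.70 (SE; edgeR adjusted p = 0.996), and -1.54 without KO+ITA replicate 3. Ccne2 (cyclin E2) was also highest in KO+ITA replicate 3, at 8.78 CPM against 1.32 to 4.82 CPM in the other 8 libraries. Its KO values of 2.85 to 3.71 CPM lay below its WT values of 3.84 to 4.82 CPM.

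Cdkn1a (ENSMUSG00000023067, chromosome 17, 29090976 to 29100727 on the plus strand) encodes p21, an inhibitor of cyclin-dependent kinases. It measured 1971, 2761 and 6103 CPM in KO+ITA, 3750, 1981 and 3715 CPM in KO, and 2252, 2621 and 2594 CPM in WT libraries. It took the most reads of the 40 genes in every library, and KO+ITA replicate 3 was its highest library. The log2 difference was 0.20 ± 0.38 (SE) for KO+ITA against KO (edgeR adjusted p = 0.914), and -0.42 without KO+ITA replicate 3. It was 0.54 ± 0.38 for KO+ITA against WT (adjusted p = 0.68), turning to -0.71 with pool as a term, and for KO against WT 0.34 ± 0.38 (adjusted p = 0.995). Cdkn1b, which encodes the related inhibitor p27, measured 29.3, 47.3 and 55.4 CPM in KO+ITA, 44.1, 35.6 and 36.5 CPM in KO, and 37.0, 34.8 and 26.5 CPM in WT libraries.

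Rb1, the retinoblastoma gene, averaged 50.7 ± 15.3 CPM in KO+ITA, 51.8 ± 14.4 CPM in KO and 51.9 ± 5.11 CPM in WT (SD, n = 3 each), with a log2 difference of -0.03 ± 0.31 (SE) for KO+ITA against KO. E2f1, the factor Rb1 restrains, measured 16.9, 9.43 and 10.8 CPM in KO+ITA, 8.21, 13.4 and 12.7 CPM in KO, and 15.0, 14.7 and 15.3 CPM in WT libraries. Its KO values all lay below its WT values, at a log2 difference of -0.39 ± 0.32 (SE; edgeR adjusted p = 0.995). Of the 9 G1 genes, 6 were higher for KO+ITA against KO (median 0.18), 5 for KO+ITA against WT (median 0.42) and 5 for KO against WT (median 0.11). With pool as a term the first 2 medians were -0.32 and -0.13, and without KO+ITA replicate 3 the second was -0.07.

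**Figure D4:**
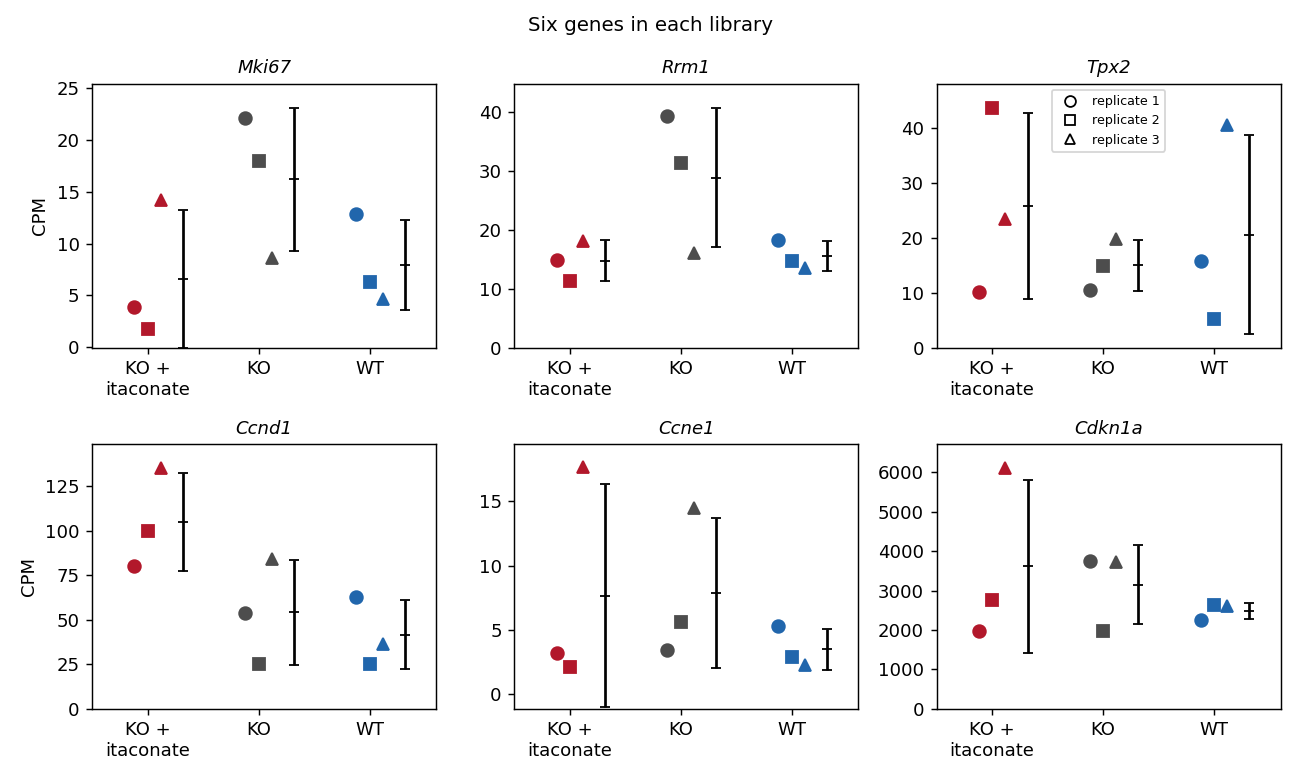
CPM of 6 genes (vertical axes, 1 scale per gene) in each library, with shapes for replicates and bars for the mean ± SD of 3 libraries. KO replicates 1 and 2 are highest for Mki67 and Rrm1, KO+ITA libraries are above all WT libraries for Ccnd1, and replicate 3 of KO+ITA and of KO carries the high values of Ccne1.

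Levels of the groups per library were taken as the mean log2 CPM after each gene was centred. They cover all 17 mitosis, 13 replication and 9 G1 genes, those below the filter included. The levels overlapped between the labelled groups for mitosis, replication and G1 alike. The mitosis level was 0.16 ± 0.14 in KO+ITA, -0.03 ± 0.14 in KO and -0.12 ± 0.19 in WT (SD, n = 3 each). The replication level was 0.04 ± 0.24 in KO+ITA, -0.05 ± 0.15 in KO and 0.01 ± 0.18 in WT. The G1 level was 0.11 ± 0.42 in KO+ITA, 0.00 ± 0.23 in KO and -0.11 ± 0.14 in WT. KO+ITA replicate 3 ranked 1 of 9 for the G1 genes, 2 for mitosis and 8 for replication. It was the highest library for 10 of the 31 tested genes, where it was so for 19.8% of all tested genes. The mitosis and replication groups were both highest in KO+ITA replicate 2.

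Further genes of the same pathways, from 3 lists, gave 0 called genes as well. Of 44 other replication genes 38 were tested, and none had an edgeR unadjusted p under 0.05 in any comparison. Of all tested genes 8.3% passed for KO+ITA against KO, 8.89% for KO+ITA against WT and 3.13% for KO against WT. Chaf1a, a chaperone that deposits histones on new DNA, measured 2.77, 2.96 and 1.8 CPM in KO+ITA, 4.06, 4.84 and 5.81 CPM in KO, and 1.68, 3.12 and 3.48 CPM in WT libraries, so that every KO library lay above the other 6. Clspn, which carries the replication checkpoint signal, was at 2.69 and 2.57 CPM in KO replicates 1 and 2, against 0.211 to 1.2 CPM elsewhere. Rfc4, a subunit of the clamp loader, was highest in KO+ITA replicate 3 at 8.78 CPM.

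Of 47 other mitosis genes 34 were tested. At an edgeR unadjusted p under 0.05 there were 5, 3 and 1 for KO+ITA against KO, KO+ITA against WT and KO against WT, all higher. Of all tested genes 8.3%, 8.89% and 3.13% passed, with 452, 574 and 264 higher and 443, 384 and 73 lower. Smc2, a condensin subunit, measured 30.8, 34.2 and 74.4 CPM in KO+ITA, 90.2, 69.6 and 58.0 CPM in KO, and 52.0, 34.1 and 23.1 CPM in WT libraries. Its KO values lay above its WT values (log2 difference 1.00 ± 0.38 SE, edgeR adjusted p = 0.995). Espl1 (separase) measured 5.91, 1.97 and 6.03 CPM in KO+ITA, 2.49, 0.832 and 0.492 CPM in KO, and 2.16, 1.25 and 1.34 CPM in WT libraries. Dlgap5, a spindle protein, differed by 2.24 ± 0.95 (SE) for KO+ITA against KO and rested on 0 to 92 reads.

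Of 34 other G1 genes 32 were tested, with 4, 5 and 1 at an edgeR unadjusted p under 0.05 in the same order, all higher. The shares of all tested genes, in both directions, were 8.3%, 8.89% and 3.13%. Gadd45a, a stress gene that binds Pcna and p21, measured 20.2, 24.7 and 30.5 CPM in KO+ITA, 20.3, 24.3 and 23.3 CPM in KO, and 14.4, 9.37 and 12.2 CPM in WT libraries. All 6 libraries labelled knockout lay above all 3 labelled WT, with log2 differences of 1.07 ± 0.29 (SE) for KO+ITA against WT (edgeR adjusted p = 0.515) and 0.92 ± 0.29 for KO against WT (adjusted p = 0.995). Btg1, which restrains proliferation, measured 343, 385 and 696 CPM in KO+ITA, 115, 155 and 278 CPM in KO, and 175, 177 and 333 CPM in WT libraries. Every KO+ITA value lay above the other 6, and within each group replicate 3 was highest. The log2 difference for KO+ITA against KO was 1.38 ± 0.39 (SE; unadjusted p = 0.00327, edgeR adjusted p = 0.507), and it passed under 3 other settings given with the processing.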

How the data were processed

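For the 9 libraries the authors deposited whole-number read counts by gene. The submitters' processing notes list STAR, HTSeq and the mm10 build; the sources used here give no versions, annotation or strand setting. Per the labels' protocols, libraries were oligo-dT primed, barcoded, pooled and strand-specific, so reads lie near 3′ ends and were not divided by gene length. Reads outside genes made up 23.1% to 33.7% of a library and reads with several alignments 17.1% to 20.0%; neither entered the library totals or the tests.

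Counts were tested with edgeR 4.0.16 in R 4.3.3 (quasi-likelihood F test, two-sided, all 9 libraries, group as the only term, TMM scaling, filterByExpr at 10 counts) on the 10781 genes that passed. The Benjamini-Hochberg adjustment ran within each comparison at a threshold of 0.05, and the procedure was tested on simulated data. CPM are TMM-scaled and arm levels use a prior count of 2. The genes, lists and alternatives were chosen with earlier results of these data known. Genes are named by rule: Mki67, the 4 highest genes and the 2 with the smallest p of each role and comparison, both inhibitors, both Rrm subunits, every gene below the filter, and the top gene of each further list; other values of the 40 were added afterwards. Alternatives changed the scaling, filter, tool (DESeq2 1.42.0, limma 3.58.1), libraries, pool and replicate block. Positions are from GENCODE on GRCm38, transcript ends were compared with blastn 2.17.0, and promoters are from RefSeq.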

Additional observations from a re-analysis of the deposited data

How the results depend on the processing

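The 0 called genes in each comparison became 15, 23 and 1 with DESeq2 and 80, 92 and 0 with no filter on low counts (KO+ITA against KO, KO+ITA against WT and KO against WT). Without the 4 libraries whose Acod1 reads went against their labels, 217 genes were called for KO+ITA against KO. WT replicate 3 was then the only WT library, so values against WT without the 4 rest on 1 library and no count is given. Leaving out 1 library gave 0 to 6, 0 to 4 and 0 genes, the highest of each without KO+ITA replicate 1. Among the 40 genes, Mki67 (-2.83) and Rrm1 (-1.46) were called for KO+ITA against KO without the 4 libraries, and no other of the 40 was called under any alternative that gave it an adjusted p. Btg1 was called for KO+ITA against KO without the 4 libraries (1.40, adjusted p = 0.0395), with no filter (1.36, edgeR adjusted p = 0.039) and with DESeq2 (1.40, adjusted p = 0.0447). The cause was not tested.

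The median log2 difference of the mitosis genes for KO+ITA against KO was 0.29 with limma-voom, 0.65 with the replicate block, -0.0093 with pool as a term, 0.29 without the 4 libraries and 0.24 to 0.45 with 1 library left out. For KO+ITA against WT it was -0.29 with pool as a term, -0.11 without the 4 and 0.26 to 0.72 with 1 left out. For KO against WT it was 0.0072 with limma-voom, -0.025 within pool 1, -0.93 without the 4 and -0.44 to 0.51 with 1 left out. Without the 4, the values against WT here rest on WT replicate 3 alone. For replication genes the values with pool as a term were 0.051 for KO+ITA against KO and -0.27 for KO+ITA against WT, and the ranges with 1 library left out were 0.15 to 0.39, -0.089 to 0.21 and -0.30 to 0.065 in the 3 comparisons. For G1 genes they were -0.32 and -0.13 with pool as a term, -0.14 for KO+ITA against WT without the 4, and -0.03 to 0.40, -0.069 to 0.56 and -0.04 to 0.21 with 1 left out. Mki67 ranged with 1 library left out from -2.52 to -0.85, from -1.47 to 0.26 and from 0.75 to 1.56. The mitosis level difference for KO+ITA against KO was 0.43 on summed CPM.

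With pool as a term, which sets KO+ITA replicate 1 against KO replicate 3 and, for WT, adds KO replicates 1 and 2 against WT within pool 1, the sign turned beyond the SE for Tpx2 (-0.96) and Rfc4 (-1.18) for KO+ITA against KO. For KO+ITA against WT it turned for Ccnb2 (-2.17), Cdkn1a (-0.71), Ccne1 (-1.78) and Rfc4 (-1.02). Acod1, by whose reads the 4 libraries that went against their labels were chosen, was -9.73 for KO+ITA against WT and -8.66 for KO against WT without them. That choice, which left WT replicate 3 as the only WT library, set the size and sign of these values. In all, 146 of 1773 values of the named genes changed sign, 8 of them, these Acod1 values included, beyond the SE or with a call. The replicate numbers were not treated as pairing, because 3 of 9 same-numbered pairs had correlated deviations over 0.1 (range -0.16 to 0.24) and 5 of 18 best partners shared a number; the block called 0 genes in each comparison. The genes below the filter had at most 14 reads in a library; with no filter all 40 genes were tested and 0 were called. DESeq2 gave an adjusted p to 1, 37 and 40 of the 40 genes in the 3 comparisons, none under 0.05. Whether depth or low expression set those counts was not tested.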
